A study of Macaca mulatta with 11 samples.

Results

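CEBPA and CEBPB encode C/EBP alpha and C/EBP beta, transcription factors of the CCAAT/enhancer binding protein family. Every probe set annotated with either symbol was taken, 3 for CEBPA and 2 for CEBPB, and these are 2 of 14132 genes that had a probe set with a single symbol. Expression was measured in cumulus cells of the rhesus monkey (Macaca mulatta), the companions of the oocyte inside the follicle, on 11 Affymetrix arrays in 3 groups. All females had received follicle-stimulating hormone (FSH). The 4 pre-maturation samples (PM) came from immature cumulus-oocyte complexes after FSH alone, the 3 IVM samples from complexes that then matured in culture, and the 4 VVM samples from complexes that matured in the animal with human chorionic gonadotropin (hCG). Age, strain, culture time and the pooling of animals are not given in the sources used here, and neither is whether arrays of a group stand for different monkeys. The p-values therefore measure the spread between these samples, which may be technical.

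C/EBP proteins bind DNA as dimers through a basic region and a leucine zipper. In mouse granulosa cells, luteinizing hormone acts through EGF-like ligands, the EGF receptor and ERK kinases, and C/EBP alpha and beta lie downstream of these kinases. Mice whose granulosa cells lack both factors fail to ovulate and to form corpora lutea. The same factors also drive genes of liver, fat and myeloid cells.

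CEBPA was higher in IVM than in PM and higher still in VVM, in all of its probe sets. IVM and VVM are alternative ends of maturation, and VVM does not follow IVM. CEBPB rose from PM in both matured groups, and its difference between IVM and VVM did not pass the test. Levels below are log2 of the deposited RMA intensity, a background-corrected and array-normalized brightness, and the level of a probe set is not set against that of another. In such bulk samples, fewer cells of a type and less RNA per cell cannot be told apart.

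The brightest CEBPA probe set, MmunewRS.760.1.S1_at, stood at log2 levels of 4.80, 4.09, 4.22 and 6.45 in PM 1 to PM 4. It stood at 9.65, 8.67 and 8.15 in IVM 1 to IVM 3, and at 11.48, 11.01, 11.71 and 10.97 in VVM 1 to VVM 4. No group overlapped another, a pattern of PM below IVM below VVM found in 1.1% of all genes, and PM 4 was the highest PM array. PM averaged 4.89 (SD 1.09, n = 4), IVM 8.82 (SD 0.76, n = 3) and VVM 11.29 (SD 0.36, n = 4).

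The probe set MmuSTS.3401.1.S1_s_at read log2 levels of 5.63, 5.61, 5.82 and 6.19 in PM, 8.19, 7.17 and 7.66 in IVM and 11.21, 10.45, 10.91 and 10.14 in VVM. The probe set MmuSTS.3401.1.S1_at read 4.04, 4.44, 4.38 and 4.38 in PM, 5.59, 4.98 and 6.005 in IVM and 8.24, 7.59, 8.27 and 7.15 in VVM. Both put every VVM array above every IVM array and every IVM array above every PM array. Over the 11 arrays, which share the group structure, the CEBPA probe sets correlated with each other at 0.95, 0.91 and 0.99 (Pearson). Their names share a design cluster in the case of the second and the third, so these may share probes. The suffix _s_at of the second marks probes that can match more than a single transcript.

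**Figure D1:**
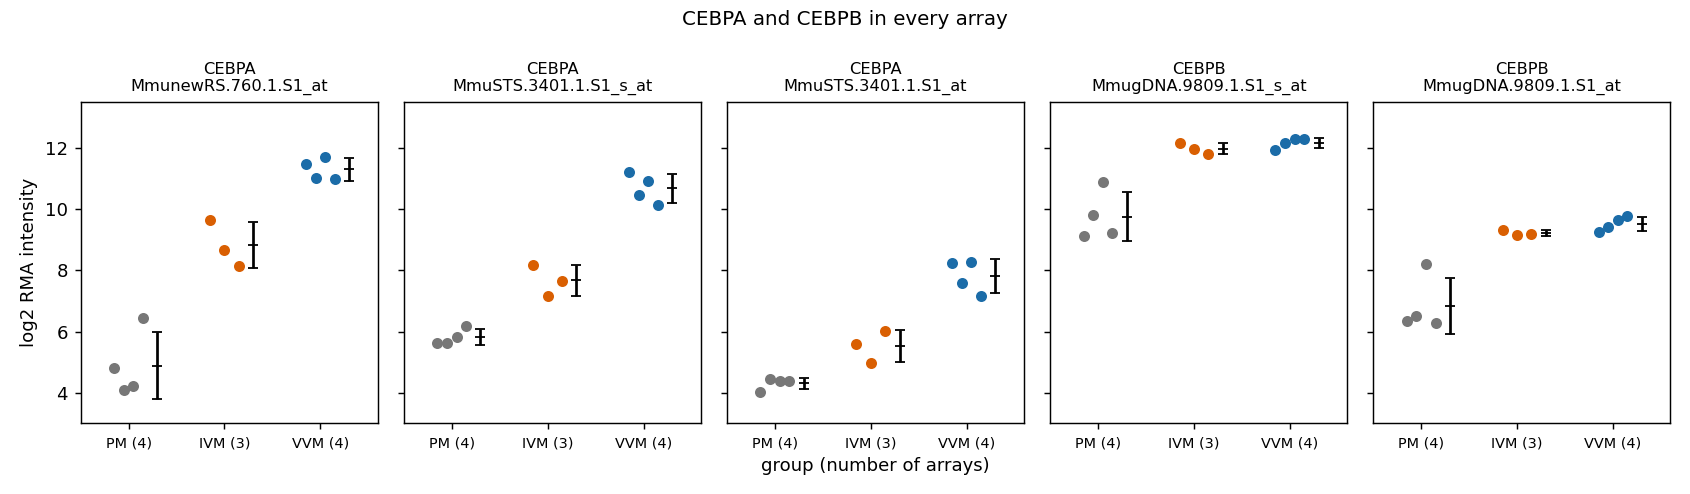
Log2 RMA intensity (y axis) of the 3 CEBPA and 2 CEBPB probe sets in the PM, IVM and VVM arrays (x axis). Each point is an array, and the bars are the mean and SD of the group. Every CEBPA panel has 3 separate levels, whereas in both CEBPB panels the IVM and VVM arrays lie close together above PM.

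CEBPA was lower in IVM than in VVM, by a log2 difference of -2.47 ± 0.52 (limma, SE, n = 3 and 4, adjusted p = 0.0114) with a 95% interval from -3.61 to -1.33. This is a fold of 5.55, and the other probe sets gave folds of 8.03 (adjusted p = 0.000189) and 4.88 (adjusted p = 0.000976). Of all genes, 7.63% were called lower in IVM and 9.06% higher, and 11.1% had all IVM arrays below all VVM arrays. By absolute size the CEBPA difference ranked 111 among all genes.

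From PM to IVM, CEBPA rose by 3.93 ± 0.52 (limma, SE, adjusted p = 0.00024), a 15.3-fold change. The other probe sets rose by less, 3.63-fold and 2.32-fold. The background is wide here: 25% of genes were called higher in IVM than in PM, and 29.4% had all IVM arrays above all PM arrays.

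From PM to VVM, CEBPA rose by 6.40 ± 0.48 (limma, SE, adjusted p = 1.07e-05). The rise was 84.7-fold by this probe set and 29.1-fold and 11.3-fold by the others. Of all genes, 18% were called higher in VVM than in PM and 20.8% had all VVM arrays above all PM arrays, with 21.1% the other way round. In 2 of the 3 CEBPA probe sets the PM mean lay under 5.45, the median over all probe sets, so their folds against PM are at best lower bounds. The same limit holds for differences of genes named below from a group with a mean under 5.45. Among these are AREG (4.72) and HSD11B1 (5.25) in PM, and IGFBP1 in IVM. The 3 comparisons share arrays. Both differences, higher in IVM than in PM and higher in VVM than in IVM, were called for 85 genes or 0.601% of all, CEBPA among them.

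The brighter CEBPB probe set, MmugDNA.9809.1.S1_s_at, whose suffix marks probes that can match more than a single transcript, stood at log2 levels of 9.10, 9.79, 10.87 and 9.23 in PM 1 to PM 4. It stood at 12.15, 11.94 and 11.79 in IVM and at 11.94, 12.16, 12.28 and 12.29 in VVM. The IVM and VVM arrays overlapped, and PM 3, the highest PM array, lay below every matured array.

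The other CEBPB probe set, MmugDNA.9809.1.S1_at, read log2 levels of 6.36, 6.51, 8.20 and 6.29 in PM, 9.31, 9.16 and 9.17 in IVM and 9.26, 9.40, 9.63 and 9.78 in VVM. PM 3 was again the highest PM array, and IVM and VVM again overlapped. The CEBPB probe sets correlated at 0.99 over the 11 arrays, and with the CEBPA probe sets at 0.76 to 0.84. Both CEBPB names share a design cluster, so these probe sets may share probes.

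From PM to IVM, CEBPB rose by 2.21 ± 0.34 (limma, SE, n = 3 and 4, adjusted p = 0.000599), or 4.64-fold, and 5.19-fold by the other probe set. From PM to VVM it rose by 2.42 ± 0.31 (limma, SE, n = 4 and 4, adjusted p = 0.000229), or 5.34-fold, and 6.41-fold by the other. Among the rises of all genes these ranked 136 and 187, and by absolute size among all differences 486 and 366. Of all genes, 12% were called higher than PM in both matured groups.

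Between IVM and VVM the CEBPB difference was -0.20 ± 0.34 (limma, SE, adjusted p = 0.752), with a 95% interval from -0.95 to 0.54, or 0.518 to 1.46 times the VVM level. The other probe set gave -0.30 (adjusted p = 0.657). Whether the genes differ in their response was not tested, and their values can be set side by side within each array. The log2 CEBPA signal minus the log2 CEBPB signal, of which only the change between arrays has a meaning, ran from -6.65 to -2.77 in PM, from -3.65 to -2.50 in IVM and from -1.32 to -0.46 in VVM. All VVM arrays lay above the others, while PM and IVM overlapped through PM 4. These values use the brightest probe set of each gene. From PM to IVM the other CEBPA probe sets rose by log2 differences of 1.86 and 1.21, less than the CEBPB probe sets at 2.21 and 2.38. With those CEBPA probe sets the mean of CEBPA minus CEBPB therefore fell from PM to IVM, while with the brightest it rose.

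The level of the bacterial hybridization controls, which are added to the labelled material, moved with the groups. They averaged log2 levels of 9.89 to 10.28 in PM, 11.46 to 12.18 in IVM and 10.41 to 11.32 in VVM. No group overlapped another, so control level and group cannot be told apart. With that level as a covariate in limma, the CEBPA differences were -2.32 between IVM and VVM (adjusted p = 0.223), 4.25 from PM to IVM (adjusted p = 0.256) and 6.57 from PM to VVM (adjusted p = 0.00366). Those of CEBPB were -0.86 between IVM and VVM (adjusted p = 0.466), 0.84 from PM to IVM (adjusted p = 0.72) and 1.70 from PM to VVM (adjusted p = 0.0599). Every call between IVM and PM in the 5 gene lists below (the C/EBP family, its partners, upstream genes, ovarian targets and other targets) was lost in limma with this covariate. From PM to VVM it left 2 family genes called higher in VVM, while the calls of family genes lower in VVM and of partners higher in VVM were lost.

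Leukocyte transcripts were higher in some VVM arrays, and CEBPA and CEBPB are also genes of myeloid cells. Of 15 measured leukocyte markers of 19 listed, 9 were called higher and 2 lower in VVM than in PM, and 3 were called lower in IVM than in VVM, where 18%, 21.8% and 7.63% of all genes were. Their summed intensity ran from 1639 to 1841 in PM, from 990.2 to 1202 in IVM and from 974 to 6548 in VVM. RMA values are never at 0, and 7, 9 and 12 markers had a mean above the median over all probe sets in PM, IVM and VVM. A mean over all arrays above that median was found for at least 9598 of all 14132 genes. LYZ, lysozyme of phagocytes, stood at log2 levels of 5.10, 7.62, 9.51 and 4.79 in VVM 1 to VVM 4, against 3.36 to 4.10 in PM.

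CEBPA in VVM 1 and VVM 4, the VVM arrays with less LYZ, was 11.48 and 10.97, against 11.01 and 11.71 in VVM 2 and VVM 3. With PM 1, VVM 2 and VVM 3 left out, its difference between IVM and VVM was -2.40 (limma, adjusted p = 0.0883) and its rise from PM to VVM 6.31 (adjusted p = 0.00119). With a covariate made of the mean of CD14, LYZ, PTPRC and TYROBP, these were -2.18 (adjusted p = 0.134) and 6.08 (adjusted p = 0.00121). That mean ran from 5.36 to 8.70 in VVM, from 4.23 to 4.56 in PM and from 4.50 to 4.70 in IVM. Every VVM array lay above every PM and IVM array, so leukocyte level and VVM cannot be fully told apart. The SE of the CEBPA difference between IVM and VVM was 0.75 with this covariate and 0.52 without it. CEBPB rose from PM to VVM by 2.15 (adjusted p = 0.0101) without the 3 arrays and by 2.39 (adjusted p = 0.0132) with the covariate.

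**Figure D2:**
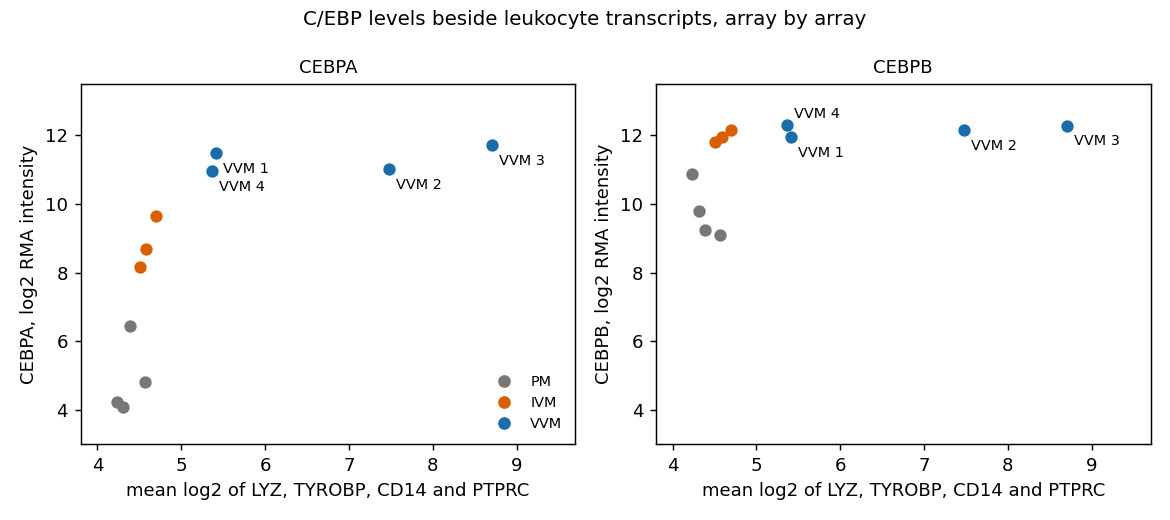
Log2 RMA intensity of CEBPA and CEBPB (y axes) against the mean log2 level of the leukocyte genes CD14, LYZ, PTPRC and TYROBP (x axes), with a point for each of the 11 arrays, coloured by group. In VVM the leukocyte mean runs from 5.36 to 8.70 while CEBPA lies between 10.97 and 11.71.

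The samples carried transcripts of granulosa and cumulus cells. Of 9 measured markers of 12 listed, 8 in PM, 9 in IVM and 9 in VVM had a mean above the median over all probe sets. At least 9598 of all 14132 genes had a mean over all arrays above it. Of the measured markers, 6 were called lower and 1 higher in VVM than in PM, where 21.8% and 18% of all genes were. Another count was 4 called higher in IVM than in VVM, where 9.06% of all genes were. Summed endothelial markers ran from 261 to 296 in PM, 344 to 375 in IVM and 327 to 1061 in VVM. Summed erythrocyte markers ran from 241 to 475, 171 to 212 and 391 to 1087, and their part in the C/EBP levels was not tested. INHA, the inhibin alpha subunit, averaged log2 levels of 13.84, 13.28 and 13.49. Array medians lay between 5.34 and 5.53 on the log2 scale, and arrays of a group correlated at 0.974 to 0.987 across probe sets, with no identical pair.

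Among the 7 C/EBP family and C/EBP-named genes, CEBPA, CEBPB and CEBPD were called higher than PM in both matured groups and CEBPZ lower in both. These are 4 of 7 genes, where 45.9% of all genes were called in IVM and 39.8% in VVM. CEBPA was the single member of the 7 called between IVM and VVM, where 16.7% of all genes were called. The median log2 difference of the list was 0.84 in IVM and 0.83 in VVM against PM, and -0.00944 between IVM and VVM. The medians over all genes were 0.12, 0.041 and 0.082.

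CEBPD, which encodes C/EBP delta, stood at log2 levels of 9.35, 9.60, 9.66 and 9.48 in PM, 11.77, 12.01 and 12.04 in IVM and 10.89, 11.57, 11.94 and 11.63 in VVM. All matured arrays lay above all PM arrays, and IVM and VVM overlapped. CEBPD rose from PM by 2.42 ± 0.21 in IVM (limma, SE, adjusted p = 1.94e-05) and by 1.98 ± 0.19 in VVM (SE, adjusted p = 3.73e-05). Its difference between IVM and VVM was 0.43 ± 0.21 (adjusted p = 0.209), and its rise to IVM was 1.41 (adjusted p = 0.235) with the hybridization controls as a covariate.

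CEBPG, a short family member without an activation domain of its own, differed from PM by -0.29 in IVM (adjusted p = 0.562) and by 0.15 in VVM (adjusted p = 0.777). Its dimmer probe set rose by 1.18 (adjusted p = 0.00492) and 0.98 (adjusted p = 0.0102), so the CEBPG probe sets disagree. CEBPE, which encodes the myeloid C/EBP epsilon, differed from PM by 0.24 and 0.25, neither called. DDIT3, the stress-induced family member also named CHOP, differed by 0.84 and 0.83, neither called, and passed without PM 3 at 1.15 (adjusted p = 0.0479) and 1.14 (adjusted p = 0.0469).

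CEBPZ, a CCAAT-binding protein gene outside the leucine zipper family, was lower than PM by a log2 difference of -0.50 in IVM (limma, adjusted p = 0.0227) and of -0.79 in VVM (adjusted p = 0.00159). The call in IVM was lost when PM 1 (-0.46, adjusted p = 0.0579) or IVM 2 (-0.35, adjusted p = 0.0952) was left out and after a further quantile normalization (-0.18, adjusted p = 0.359).

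**Figure D3:**
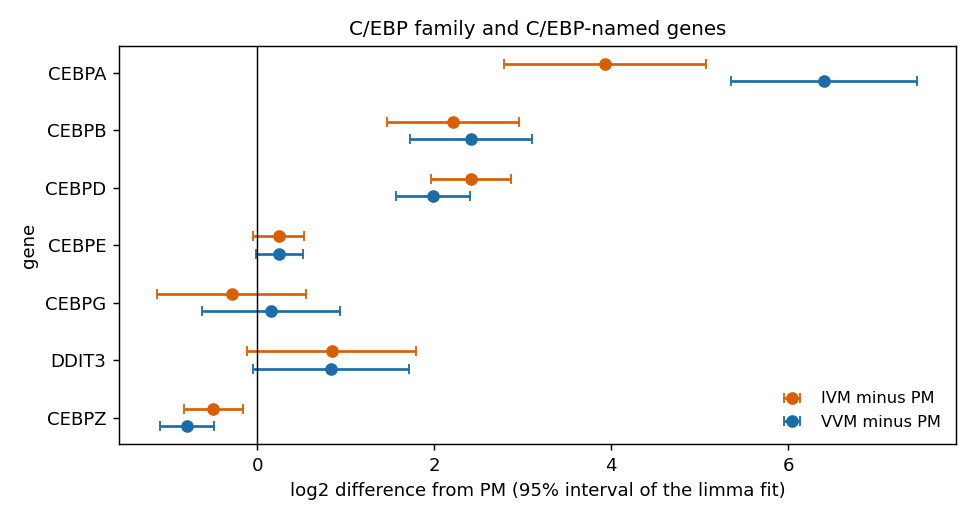
Log2 difference from PM (x axis) of the 7 C/EBP family and C/EBP-named genes (y axis), for IVM and for VVM, with 95% intervals of the limma fit. CEBPA lies at 3.93 in IVM and 6.40 in VVM, while CEBPB lies at 2.21 and 2.42 and CEBPD at 2.42 and 1.98.

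Among dimer partners, tribbles proteins and cofactors of C/EBP, 10 of 11 listed genes were measured. Against VVM, 1 was called higher in IVM and 3 lower, with a median difference of -0.45, where 16.7% of all genes were called. TRIB1, a pseudokinase that in mouse myeloid cells directs C/EBP alpha protein to degradation, stood at log2 levels of 7.57, 7.89, 8.43 and 7.17 in PM, 8.68, 7.86 and 6.40 in IVM and 10.99, 11.21, 11.85 and 9.57 in VVM. Every VVM array lay above all others, and PM and IVM overlapped.

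TRIB1 was lower in IVM than in VVM, at -3.26 ± 0.58 (limma, SE, adjusted p = 0.00479), with 1 of its 2 probe sets called, and at -2.23 (adjusted p = 0.106) with the leukocyte covariate. TRIB2, a related pseudokinase with the same action in mouse myeloid cells, was called lower than PM at -1.87 ± 0.43 in IVM (adjusted p = 0.00622) and -2.08 ± 0.40 in VVM (adjusted p = 0.00263). Of the 4 TRIB2 probe sets, 2 were called that way in IVM and 4 in VVM. TRIB3, a pseudokinase gene of the amino acid stress response, was higher in IVM than in VVM by 1.44 ± 0.20 (adjusted p = 0.00159) and higher than in PM by 1.91 ± 0.20 (adjusted p = 6.24e-05), with 1 and 2 of its 2 probe sets called.

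EP300, which encodes an acetyltransferase coactivator, was lower in IVM than in VVM at -0.81 ± 0.14 (limma, SE, adjusted p = 0.00396), with 3 of 6 probe sets called that way. NCOR1, a corepressor gene, was lower at -1.30 ± 0.32 (adjusted p = 0.0231), with 2 of 5. The NCOR1 call was lost on leaving out IVM 1, IVM 2, VVM 1 or VVM 2, where the difference lay between -1.32 and -0.88 and the adjusted p reached 0.0708. With the leukocyte covariate, and with PM 1, VVM 2 and VVM 3 left out, TRIB1, EP300 and NCOR1 all lost this call, with adjusted p from 0.0795 to 0.106 and from 0.0521 to 0.103. In these fits the differences were -0.65 and -0.71 for EP300, -1.52 and -1.38 for NCOR1, and -2.23 and -2.63 for TRIB1. The leucine zipper factors ATF3 and NFIL3 differed by -1.60 (adjusted p = 0.0765) and -0.62 (adjusted p = 0.114). ATF3 passed without VVM 4 (-1.92, adjusted p = 0.0445) and NFIL3 without IVM 1 (-0.86, adjusted p = 0.0379).

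Against PM, 2 of these genes were higher and 5 lower in IVM, and 2 higher and 5 lower in VVM. Of all genes, 25% were higher and 20.9% lower in IVM, and 18% higher and 21.8% lower in VVM. The lower count in VVM was 2 with the leukocyte covariate and 2 without PM 1, VVM 2 and VVM 3. ATF4, which can pair with C/EBP factors, was lower at -0.85 in IVM (limma, adjusted p = 0.008) and -0.69 in VVM (adjusted p = 0.0185). CREBBP, a coactivator gene, was lower at -0.72 (adjusted p = 0.00366) and -0.44 (adjusted p = 0.0339). The probe sets of some genes disagreed. EP300, NCOR1 and CREBBP were called lower in VVM than in PM in 3 of 6, 2 of 5 and 1 of 2 probe sets. The EP300 probe sets MmugDNA.41102.1.S1_at and MmugDNA.41102.1.S1_x_at were called higher in VVM, each by 0.77 (adjusted p = 0.00683 and 0.0117). The genes higher in VVM were TRIB1, at 3.14 (adjusted p = 0.00121), and NFIL3, at 0.62 (adjusted p = 0.0479). TRIB1 was at 2.01 (adjusted p = 0.0999) with the leukocyte covariate and 1.94 (adjusted p = 0.191) with the hybridization controls. The NFIL3 call was lost without PM 1, PM 4, IVM 2 or any of the VVM arrays, at 0.50 to 0.68.

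Of 30 listed ligands, receptors, kinases and feedback genes upstream of C/EBP, 21 were measured. In IVM 2 were called higher and 5 lower relative to VVM, with a median difference of -0.16, where 9.06% and 7.63% of all genes were. EREG, FSHR and LHCGR are not analysed here. AREG, an EGF-like ligand, stood at log2 levels of 4.41, 4.70, 4.32 and 5.44 in PM, 8.08, 6.29 and 5.52 in IVM and 11.05, 11.66, 12.36 and 10.40 in VVM. Like CEBPA, AREG had 3 levels without overlap.

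The AREG difference between IVM and VVM was -4.73 ± 0.58 (limma, SE, adjusted p = 0.000757). Its smaller rise from PM to IVM, 1.92 (adjusted p = 0.0219), lost its call without PM 1 (1.81), PM 3 (1.78) or IVM 1 (1.19, adjusted p = 0.0907). BTC, another EGF receptor ligand, went the other way from PM, at -3.74 in IVM (adjusted p = 5.02e-05), and was lower in IVM than in VVM at -2.55 (adjusted p = 0.00217), each in 1 of 2 probe sets. With the hybridization controls these were -1.44 (adjusted p = 0.436) and -1.45 (adjusted p = 0.127). EGFR, the receptor, was lower in IVM than in PM at -1.52 (adjusted p = 0.0028), while its differences of -0.91 from VVM and -0.61 between VVM and PM were not called.

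SPRY1 and SPRY2, feedback inhibitors of receptor kinases, were lower in IVM than in VVM at -2.13 (limma, adjusted p = 0.000443) and -1.86 (adjusted p = 0.00485). SPRY2 was -1.38 (adjusted p = 0.102) with the leukocyte covariate. It was -2.08 (adjusted p = 0.0887) with the hybridization controls and -1.54 (adjusted p = 0.0656) without PM 1, VVM 2 and VVM 3. CREB1, a transcription factor of cyclic AMP signalling, was lower in IVM at -0.82 (adjusted p = 0.00808). HRAS, a small GTPase of the ERK cascade, and MAP2K2, an ERK kinase, were higher in IVM, by 0.94 (adjusted p = 0.0116) and 0.94 (adjusted p = 0.00722). With the hybridization controls these were 0.79 (adjusted p = 0.273) and 0.51 (adjusted p = 0.341). Between IVM and VVM, SPRY2, CREB1 and MAP2K2 were each called in 1 of 2 probe sets. Against PM, 6 genes of the list were higher and 10 lower in IVM, and 3 higher and 7 lower in VVM, where 25%, 20.9%, 18% and 21.8% of all genes were. The 7 lower in VVM became 3 with the leukocyte covariate, 3 with the hybridization controls and 4 without PM 1, VVM 2 and VVM 3.

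Of 15 listed ovulatory and steroid genes described with C/EBP input in the ovary, 11 were measured. Against PM, 6 were called higher and 1 lower in IVM (median 0.74), and 8 higher and 2 lower in VVM (median 1.67), where 45.9% and 39.8% of all genes were called. The count higher in VVM was 5 with the leukocyte covariate, 5 with the hybridization controls and 5 with PM 1, VVM 2 and VVM 3 left out. The 6 higher in IVM all lost their call with the hybridization controls. Between IVM and VVM, 1 was called higher in IVM and 2 lower, where 9.06% and 7.63% of all genes were.

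HSD11B1, whose enzyme regenerates active glucocorticoid, stood at log2 levels of 5.25, 4.71, 5.58 and 5.47 in PM, 10.91, 8.68 and 7.75 in IVM and 13.07, 12.98, 13.61 and 12.39 in VVM. It had 3 levels without overlap, as CEBPA did. The differences were 3.87 ± 0.58 from PM to IVM (limma, SE, adjusted p = 0.000546) and -3.90 ± 0.58 between IVM and VVM (adjusted p = 0.00217). The first was 2.08 (adjusted p = 0.609) with the hybridization controls as a covariate.

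STAR, whose protein carries cholesterol into the mitochondrion, stood at log2 levels of 7.08, 4.40, 7.31 and 6.45 in PM, 12.78, 12.01 and 11.29 in IVM and 12.71, 13.47, 13.29 and 12.57 in VVM. As for CEBPB, both matured groups lay above PM and overlapped each other. STAR rose by 5.72 in IVM (limma, adjusted p = 5.94e-05) and by 6.70 in VVM (adjusted p = 1.79e-05). TNFAIP6, a linker of the hyaluronan matrix, rose by 4.20 (adjusted p = 0.000132) and 4.88 (adjusted p = 3.64e-05), and the protease gene ADAMTS1 by 2.92 (adjusted p = 0.00279) and 4.22 (adjusted p = 0.000209).

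PTX3, a gene of the expanded cumulus matrix, stood at log2 levels of 6.54, 3.89 and 2.94 in IVM and 7.70 to 10.97 in VVM, and IVM did not overlap VVM. Its difference of -4.90 (limma, adjusted p = 0.0034) was -3.25 (adjusted p = 0.0729) with the leukocyte covariate. RUNX1, a transcription factor gene induced around ovulation, rose in VVM by 1.67 (adjusted p = 0.00498, 4 of 7 probe sets), and its difference was 1.18 (adjusted p = 0.192) with that covariate. CYP19A1, aromatase, was higher in IVM than in VVM by 1.91 (adjusted p = 0.0122), and by 2.21 (adjusted p = 0.0552) with it. With the hybridization controls this was 1.11 (adjusted p = 0.425). From PM, CYP19A1 differed by -0.049 in IVM (adjusted p = 0.932) and by -1.96 in VVM (adjusted p = 0.00264). INHA was lower than PM in both, at -0.57 (adjusted p = 0.0063) and -0.35 (adjusted p = 0.0462). The INHA call in VVM was lost without IVM 1, any of the PM arrays or any of the VVM arrays. It was also lost with the leukocyte covariate, the hybridization controls, the replicate numbers as a block and a further quantile normalization.

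**Figure D4:**
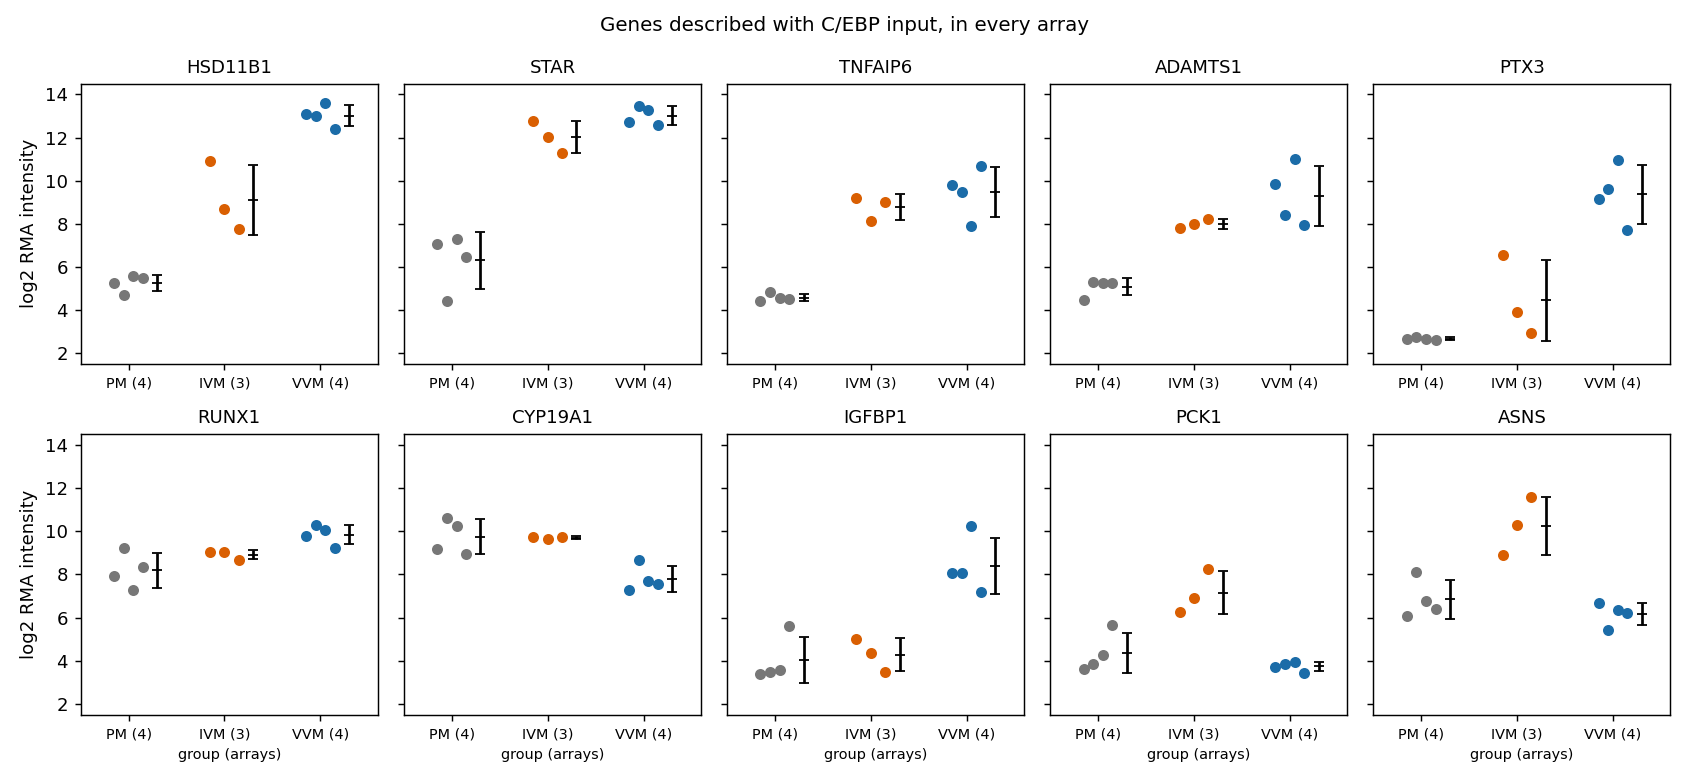
Log2 RMA intensity (y axis) in the PM, IVM and VVM arrays (x axis) of genes described with C/EBP input in ovary or other tissues. Points are arrays and the bars are the mean and SD of the group. HSD11B1 has 3 separate levels, averaging 5.25, 9.12 and 13.02, while STAR averages 12.03 in IVM and 13.01 in VVM with overlapping arrays.

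Of 23 listed genes described with C/EBP input in liver, fat, myeloid cells or the stress response, 22 were measured. Relative to VVM, 4 were called higher in IVM and 2 lower, with a median difference of -0.077, where 9.06% and 7.63% of all genes were called. The 2 lower became 1 without PM 1, PM 2, PM 3, PM 4, IVM 1, IVM 2, IVM 3 or VVM 2, and both calls were lost with the leukocyte covariate. The liver genes PCK1 and IGFBP1 went opposite ways. PCK1, of gluconeogenesis, stood at log2 levels of 6.28, 6.93 and 8.27 in IVM and 3.44 to 3.96 in VVM. IGFBP1, whose product binds insulin-like growth factors, stood at 4.998, 4.37 and 3.46 in IVM and 7.21 to 10.27 in VVM. Neither gene overlapped between the groups, and the IGFBP1 difference of -4.13 (limma, adjusted p = 0.00431) was -2.63 (adjusted p = 0.0934) with the leukocyte covariate.

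ASNS, which makes asparagine, was higher in IVM than in VVM by 4.09 (limma, adjusted p = 0.00188). LCN2, which binds iron carriers, was higher by 2.02 (adjusted p = 0.00945) in 1 of 4 probe sets, and SAA1, an acute phase gene, by 0.42 (adjusted p = 0.0312). LYZ, which is also a leukocyte marker, was lower in IVM at -3.20 (adjusted p = 0.0413), a call that was lost when any array other than VVM 1, VVM 3 and VVM 4 was left out, at values between -3.28 and -2.91 with an adjusted p of at most 0.127. IL1B, an inflammatory cytokine gene, differed by -2.49 (adjusted p = 0.126) and passed without VVM 1 (-3.43, adjusted p = 0.0149). Against PM, 7 genes of the list were higher and 2 lower in IVM, and 8 higher and 2 lower in VVM. Of all genes, 45.9% and 39.8% were called. The 2 lower in IVM became 1 without PM 1, PM 4, IVM 1, IVM 2 or any of the VVM arrays, and 1 with the leukocyte covariate. The 8 higher in VVM became 5 without PM 1 and 2 without PM 1, VVM 2 and VVM 3, and all of these calls were lost with the leukocyte covariate or the hybridization controls.

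The genes next to each member on the chromosome, taken from the gene order in RefSeq after the members' levels were known, were read as well. Of the 3 protein-coding genes on each side of CEBPA, WDR88, LRP3, CEBPG and PEPD were measured, and by their brightest probe sets the smallest adjusted p in any comparison was 0.0722, for LRP3 (limma). The dimmer CEBPG probe set was called against PM, as given above. Around CEBPB, SNAI1, a transcription factor gene, was higher than PM by 0.50 in IVM (adjusted p = 0.00853) and 0.45 in VVM (adjusted p = 0.0117). PTPN1, a phosphatase gene, was lower in IVM than in VVM at -1.13 (adjusted p = 0.0148), and PEDS1 was higher in IVM by 0.50 (adjusted p = 0.04) and lower in VVM than in PM by -0.40 (adjusted p = 0.0345). RIPOR3 and PARD6B were not called.

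The named genes whose levels followed each member most closely were ranked by Pearson correlation over the 11 arrays, a measure that the shared groups alone can raise, among 9598 genes with a mean above the median over all probe sets. For CEBPA they were PCSK5 (0.98), a proprotein convertase, FBXL12 (0.98), ASRGL1 (0.98), STOM (0.98), a membrane protein, and SYTL5 (0.97). PCSK5 had a mean log2 level in PM of 6.43 (SD 0.77, n = 4), in IVM of 8.49 (SD 0.32, n = 3) and in VVM of 10.74 (SD 0.56, n = 4).

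For CEBPB they were ANGPTL4 (0.98), an inhibitor of lipoprotein lipase, CRISPLD2 (0.98), FGFR3 (0.98), a fibroblast growth factor receptor, SURF1 (0.97) and SPDYA (0.97). ANGPTL4 had a mean log2 level in PM of 8.44 (SD 0.69, n = 4), in IVM of 11.08 (SD 0.070, n = 3) and in VVM of 11.27 (SD 0.27, n = 4).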

How the data were processed

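The deposited values are intensity on a linear scale, made by the authors with Affymetrix Expression Console and RMA per the submitters' processing notes, with no versions given. Per the labels, 50 ng of RNA per sample was amplified. Here log2 was taken without a pseudocount, 99 control probe sets were left out and 52766 were fitted in limma 3.58.1 (R 4.3.3) with 3 group means over all 11 arrays. P-values are two-sided, adjusted by Benjamini-Hochberg over these probe sets and called under 0.05. The fit was tested on simulated data. A gene is represented by its brightest probe set with a single symbol. Of 25330 annotation rows, 24629 matched RefSeq by gene identifier. The number of arrays limits the precision. Members and lists were chosen with earlier results of these data known. The text names the family list, up to 6 genes of each other list by size of difference between IVM and VVM, and 5 like genes per member. Of the other called genes behind the counts, it names some but not all. Same-numbered arrays had residual correlations from -0.107 to 0.101, so the numbers were not used. Alternatives changed normalization, probe set filters, variance model, arrays and covariates.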

Additional observations from a re-analysis of the deposited data

Results flagged for a closer look

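In 68 checks of groups of 4 arrays, 6 had an array far from the other 3 by Dixon's criterion, and chance gives about 1 in 20. CEBPA (MmuSTS.3401.1.S1_at) was at a log2 level of 4.04 in PM 1, against 4.38 to 4.44 in the other PM arrays. CEBPB (MmugDNA.9809.1.S1_at) was at 8.20 in PM 3, against 6.29 to 6.51. DDIT3 was at 7.49 in VVM 4, against 8.57 to 8.71 in the other VVM arrays. ADAMTS1 was at 4.48 in PM 1, against 5.25 to 5.29. IGFBP1 was at 5.61 in PM 4, against 3.40 to 3.59. LYZ was at 4.10 in PM 1, against 3.36 to 3.40.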

How the results depend on the processing

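When each array was left out in turn, no call of CEBPA or CEBPB changed. The CEBPA differences ran from -2.88 to -2.13 (IVM against VVM), 3.52 to 4.45 (IVM against PM) and 6.14 to 6.93 (VVM against PM), and those of CEBPB from -0.30 to -0.12, 1.999 to 2.59 and 2.20 to 2.79. The CEBPA call between IVM and VVM was lost with PM 1, VVM 2 and VVM 3 left out (-2.40) and with the leukocyte genes (-2.18) or the hybridization controls (-2.32) as a covariate. The last covariate also ended the CEBPA call from PM to IVM (4.25) and the CEBPB calls to IVM (0.84) and VVM (1.70). The exact permutation test of the CEBPB difference from PM to IVM (2.21) gave p = 0.0571, where 0.0286 is the smallest possible. With the replicate numbers as a block, the CEBPA differences were -2.27, 4.14 and 6.40 and those of CEBPB -0.27, 2.15 and 2.42, with no call of either changed. Signs turned for the following, with causes not tested. DDIT3 between IVM and VVM was -0.032 with arrays centred, -0.15 with array weights, -0.29 with the block and -0.20 with the hybridization controls. CEBPE there was 0.00766 with array weights, 0.066 with the 3 arrays left out and 0.053 with the leukocyte genes. CEBPG from PM to IVM was 0.021 after a further quantile normalization and 1.95 with the hybridization controls. With the latter, CEBPG and CEBPD between IVM and VVM were 0.63 and -0.049, NFIL3 and BTC from PM to VVM -0.033 and 0.012, and AREG from PM to IVM -0.000185. Leaving out single arrays gave -0.17 to 0.31 for CEBPG from PM to VVM, and -0.11 to 0.061 for CEBPE and -0.31 to 0.32 for DDIT3 between IVM and VVM. LCN2 was -0.10 between IVM and VVM and -0.20 from PM to IVM without probe sets that can cross-hybridize, and LYZ from PM to VVM was -0.021 with the leukocyte covariate, which contains it. Among refitted values of the other named genes, 1404 kept direction and side of the threshold, 97 lost a call, 8 gained one and 25 changed sign. Of list counts, 559 stayed within 1.5 times and 101 did not.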
